A study of Homo sapiens with 6 samples.

Results

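HES1 and 9 other genes of the Notch pathway were followed in slow-cycling and rapid-cycling cells of the human triple-negative breast cancer line MDA-MB-231. The members were the rows named HES1, HES4, HEY1, NOTCH1, NOTCH2, NOTCH3, JAG1, JAG2, NRARP and RBPJ, which is 10 of the 58735 genes in the deposited tables, and all 10 passed the filter on low counts that left 15881 genes. They were chosen with results of this same comparison known, so their values, fold changes and calls are given as a description and not as a test. All libraries came from wild-type cells that had been stained with PKH26, a membrane dye that is thinned out at each division, and then grown for 12 days without further dye. The slow-cycling group (SCC) was the brightest 1% of sorted cells. The rapid-cycling group (RCC) was sorted at moderate brightness according to the protocol and at low brightness according to the sample characteristics. Each group had 3 libraries, described as biological replicates without saying whether they came from separate cultures or sorts, so the spread between them may be partly technical. The material is 1 established line without other cell types, so the cells that present ligand and those that receive it cannot be told apart.

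Notch receptors are cell-surface proteins that are activated by ligands on a neighbouring cell, the Jagged and Delta-like proteins. Binding allows ADAM proteases and then gamma-secretase to cut the receptor, and the freed intracellular domain enters the nucleus and joins the DNA-binding protein RBPJ and a Mastermind coactivator. The best known target genes encode the HES and HEY basic helix-loop-helix repressors, which bind N-box and E-box sequences and recruit TLE (Groucho) corepressors. HES1 is also known to respond to inputs other than Notch, and its protein represses its own gene. In breast cancer, JAG1 and NOTCH1 are among its most studied members.

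The promoter sequences of both HES genes that stood highest in the comparison are shown first, because RBPJ binding sites carry the link between receptor and target. They come from RefSeq (build GRCh38.p14), read 5′ to 3′ on the gene's strand, with the RBPJ core TGGGAA in capitals. The HES1 stretch is chr3:194136038-194136137 on the plus strand, from 110 to 11 bases before the start annotated in RefSeq. The HES4 stretch is chr1:1000157-1000186 on the minus strand, from 89 to 60 bases before its RefSeq start. RefSeq starts are used throughout this paragraph and can differ from those of the counted genes. The counted HES4 gene begins at 1000172, so part of this stretch lies inside it and the core spans that position.
HES1: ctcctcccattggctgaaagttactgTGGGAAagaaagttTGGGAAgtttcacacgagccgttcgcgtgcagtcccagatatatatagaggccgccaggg
HES4: gctggggcgagtgTGGGAAagaatgcggag
The HES1 window of 250 bases before and 50 after the start held 2 RBPJ cores on the same strand, with first bases at 84 and 70 bases before the start. At least 2 cores, counting both strands, were present in 3.80% of the 35116 windows of this length in the table. HES4 held 1 core, 76 bases before its RefSeq start, and at least 1 core was found in 24.0% of all windows. The NOTCH1 window, from 136545999, lay wholly outside the counted gene, which begins at 136545786 on the minus strand. A window was found for 9 of the 10 members; HEY1 was not among them. Of the other members, only RBPJ had a core, with 2 in 1 of its 5 windows. The AP-1 motif TGANTCA, searched because the series title names these factors, was in 1 RBPJ window and in none of the HES1, HES4, NOTCH1, NOTCH2, NOTCH3, JAG1, JAG2 and NRARP windows, against 7.7% of all windows. The cyclic AMP response element TGACGTCA was in none of the members' windows, against 1.8% of all. The N-box CACNAG was in the HES1, NOTCH1, NOTCH2, NOTCH3 and NRARP windows and in 1 RBPJ window, against 38.0% of all windows. It occurred 4 times in the HES1 window, and 0.29% of all windows held at least 4. The E-box CANNTG was in the JAG2 and NRARP windows and in 2 RBPJ windows, against 68.7% of all. Every motif was searched on both strands, and matches of different motifs may share bases. These matches describe letters only, and no binding was measured.

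Libraries held 17655855 to 27831824 counts. SCC replicate 1 was the deepest and stood apart: in the tenth of tested genes with the highest GC content (median 63.9%), its median log2 deviation from the mean of the 6 libraries was 0.404, against -0.158 to 0.027 in the other 5. GC content is therefore given beside the results, and 5 of the 10 members were above 60% GC. Levels are TMM-scaled CPM, the share of a library's counts on a common scale, unless stated otherwise. The mesenchymal markers VIM, CD44, AXL, CAV1, MSN and ZEB1, typical of this line, summed to 3690 to 3785 CPM in SCC and 3573 to 3786 in RCC. Of 6 luminal markers, PGR, ESR1 and CDH1 were at or near 0 in every library, with FPKM of at most 0.0084, 0.050 and 0.070. The 6 together summed to 19.2 to 24.1 CPM in SCC and 17.9 to 18.1 in RCC, most of it from TFF1, FOXA1 and EPCAM. Leukocyte, endothelial and fibroblast lists summed to 124 to 137, 4.19 to 4.81 and 23.4 to 28.4 CPM in SCC, and to 122 to 134, 3.97 to 4.87 and 18.7 to 22.4 in RCC. The leukocyte sum came almost wholly from LAPTM5, while CD3E was at 0 in 5 of the 6 libraries. PTPRC, the pan-leukocyte marker CD45, had 53, 5 and 15 counts in SCC replicates 1 to 3 and 4, 3 and 10 in RCC replicates 1 to 3, highest in SCC replicate 1, and was not called (log2 fold change 1.84, edgeR adjusted p 0.206). The part of these marker levels in the Notch results was not tested.

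Among the transcriptional targets, HES1 (ENSG00000114315, chromosome 3, 194136145 to 194138732) was about 4 times higher in slow-cycling cells. SCC replicates 1 to 3 held 3271, 1956 and 1986 HES1 counts, which is 121.3 CPM in replicate 1, 94.2 CPM in replicate 3 and a level between these in replicate 2 (58.0, 48.3 and 45.6 FPKM in replicates 1 to 3). RCC replicates 1 to 3 were at 23.5, 25.0 and 28.2 CPM, from 540, 523 and 505 counts. All SCC libraries were thus more than 3-fold above every RCC library, with SCC replicate 1 the highest. In such bulk libraries, more HES1 RNA per cell and more cells with HES1 RNA cannot be told apart. The fitted fold was 4.12, a log2 fold change of 2.04 ± 0.11 (± is the standard error wherever it follows a fold change), and HES1 was among the genes called higher. With a GC content of 49.9% HES1 lay where the libraries deviated little, and its log2 fold change was 2.03 with an offset for GC content and 1.93 without SCC replicate 1.

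HES4 (ENSG00000188290, chromosome 1, 998962 to 1000172), a close relative of HES1 in sequence, was also called higher. It was at 21.7, 14.4 and 13.0 CPM in SCC replicates 1 to 3 and at 6.09, 6.12 and 9.62 in RCC replicates 1 to 3. The groups did not overlap, but SCC replicate 1 and RCC replicate 3 were each well above their own group. The fitted difference was 1.19 ± 0.22 on the log2 scale. HES4 is the member richest in GC, at 73.9%, and its log2 fold change was 0.73 with the GC offset and 0.93 without SCC replicate 1. It kept its call under both, and lost it without RCC replicate 1 (log2 fold change 1.06) or RCC replicate 2 (1.07).

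HEY1, which encodes a repressor related to the HES proteins, and NRARP, a Notch target whose product dampens the signal, had higher SCC values without being called. HEY1 (ENSG00000164683) was read at 49, 24 and 30 counts in SCC replicates 1 to 3 and at 25, 14 and 16 in RCC replicates 1 to 3. Scaled for depth these were 1.82, 1.23 and 1.42 CPM against 1.09, 0.67 and 0.89, so that the groups did not overlap. Its log2 fold change of 0.76 had a standard error of 0.32, which at these few counts leaves its size poorly known. NRARP (ENSG00000198435, chromosome 9, 137300482 to 137302251) was at 6.90, 5.11 and 3.98 CPM in SCC and at 2.48, 3.87 and 3.75 in RCC. The lowest SCC library was barely above the highest RCC library. NRARP had a log2 fold change of 0.68 with a standard error of 0.24 at a GC content of 67.3%. It was 0.35 with the GC offset and 0.44 without SCC replicate 1.

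**Figure D1:**
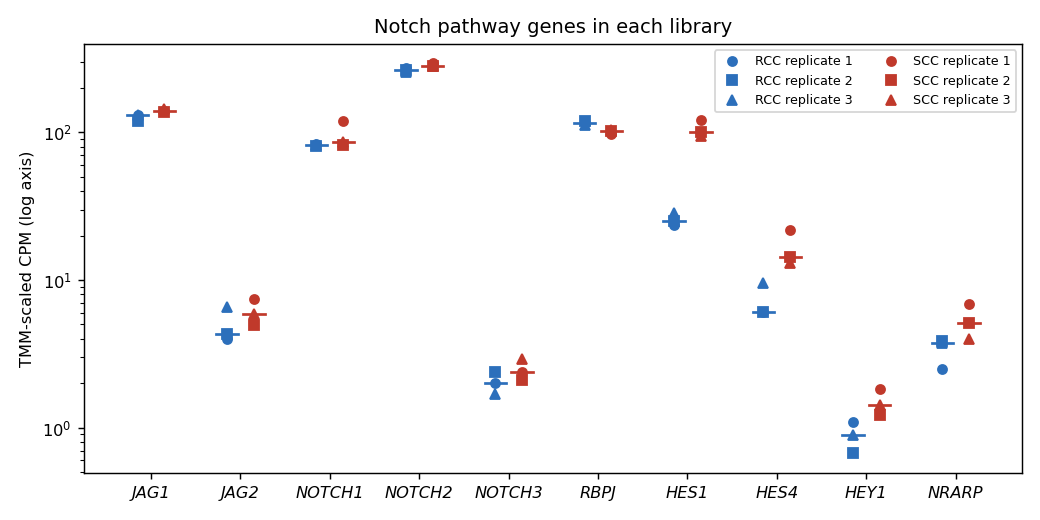
TMM-scaled CPM (log axis) of the 10 genes in each library, RCC in blue and SCC in red, with marker shape for the replicate and a short line at the median of 3 libraries. HES1 and HES4 show the widest gaps between groups, at 94.2 to 121.3 against 23.5 to 28.2 CPM and 13.0 to 21.7 against 6.09 to 9.62 CPM, whereas JAG1, NOTCH2 and RBPJ lie close together in both.

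The receptors differed little between the groups. NOTCH2 (ENSG00000134250, chromosome 1, 119911553 to 120069626), the most abundant receptor, was at 293.1, 280.2 and 282.2 CPM in SCC and at 274.3, 264.6 and 257.9 in RCC. The SCC libraries were all higher, by a log2 fold change of only 0.10 with a standard error of 0.06, and NOTCH2 was not called. NOTCH2 has near-identical partial copies, of which the tables list NOTCH2NLA with 19 to 49 counts per library, so reads from the shared part are uncertain. NOTCH1 (ENSG00000148400, chromosome 9, 136494433 to 136545786) was at 118.7, 82.2 and 86.6 CPM in SCC and at 84.1, 80.4 and 82.3 in RCC. Only SCC replicate 1 stood away from the other 5 libraries. NOTCH1 has a GC content of 62.9%, and its log2 fold change of 0.22 (standard error 0.12, not called) became 0.04 when SCC replicate 1 was left out and -0.015 under the GC offset. NOTCH3 (ENSG00000074181, chromosome 19, 15159038 to 15200981) was low throughout, at 2.37, 2.10 and 2.94 CPM in SCC and 2.0, 2.39 and 1.68 in RCC. Its groups overlapped, and its log2 fold change of 0.28 had a standard error of 0.24. At a GC content of 63.1% it was 0.05 with the GC offset, and it was 0.13 without SCC replicate 3 and 0.16 without RCC replicate 3.

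The ligand genes were not called either. JAG1 (ENSG00000101384, chromosome 20, 10637684 to 10673999) was at 139.9, 136.8 and 144.5 CPM in SCC and at 130.5, 118.9 and 130.4 in RCC. The groups did not overlap, with a log2 fold change of 0.15 and a standard error of 0.07. An antisense gene, AL050403.2, overlaps an exon of JAG1, and as the use of strand in counting was not stated, reads of the pair could mix. JAG2 (ENSG00000184916, chromosome 14, 105140981 to 105168824), with an exon overlapped by the span of AL512356.1 on the same strand, was at 7.46, 4.96 and 5.93 CPM in SCC and at 3.96, 4.30 and 6.54 in RCC. These values overlapped, and the log2 fold change of 0.33 (standard error 0.22) was 0.075 with the GC offset at a GC content of 64.0%. Leaving out SCC replicate 1 gave 0.16, RCC replicate 1 0.18 and RCC replicate 3 0.57.

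RBPJ (ENSG00000168214, chromosome 4, 26163455 to 26435131), the DNA-binding protein through which all Notch receptors act and which represses targets when no receptor fragment is bound, was the only member with lower SCC values. It was at 97.5, 102.6 and 103.4 CPM in SCC and at 115.8, 119.9 and 112.2 in RCC. All SCC libraries lay below all RCC libraries. The log2 difference was -0.20 ± 0.07, and RBPJ was not called with all libraries but was called lower without SCC replicate 1 (-0.17). RBPJ is the member poorest in GC, at 38.0%, and the GC offset brought it to -0.07, not called.

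Across the 10 members, 2 were called higher and 0 lower. The same fit called 2.07% of all tested genes, 1.69% higher and 0.378% lower. The median log2 fold change of the members was 0.31, against 0.003 over all tested genes. The groups did not overlap for 6 members with SCC above and for 1 with SCC below, where 27.8% of all tested genes did not overlap (14.4% with SCC above and 13.4% below). Nothing is read from these counts, since the members were chosen from the same comparison. The 5 members above 60% GC moved most under the GC offset, by 0.23 to 0.46 on the log2 scale, and the members' median fell to 0.115. HES1, NOTCH2, JAG1 and HEY1, all within 3 percentage points of 50% GC, moved by at most 0.02.

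**Figure D2:**
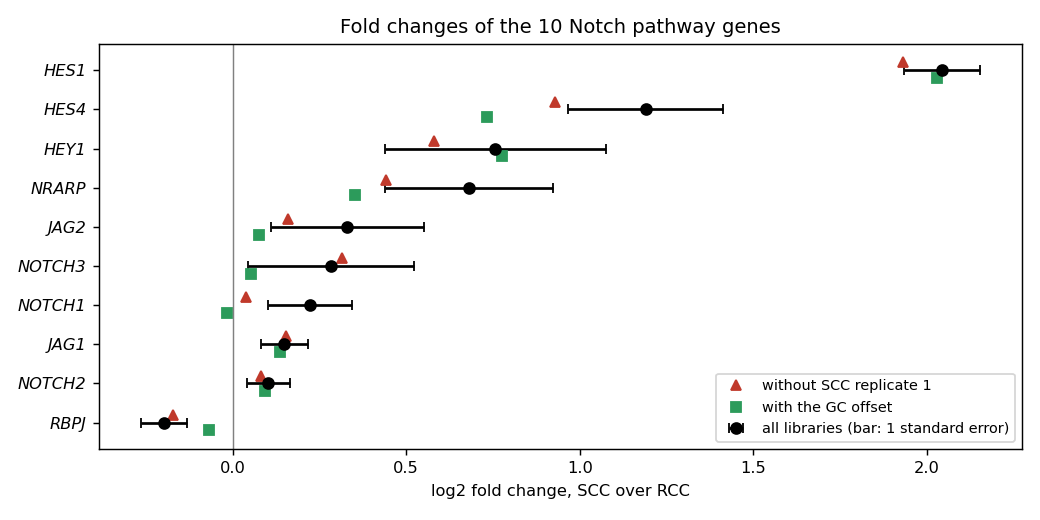
Log2 fold change of SCC over RCC for each gene (horizontal axis), with black points and bars of 1 standard error for the fit on all libraries, red triangles for the fit without SCC replicate 1 and green squares for the fit with the GC offset. HES1 stays near 2 in all fits, HES4 falls from 1.19 to 0.73 with the GC offset, and NOTCH1 falls from 0.22 to -0.015.

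Levels of different genes were compared on the deposited FPKM scale, which divides by gene length. Close ranks depend on the length used, such as 1118 bases for HES4 and 9253 for RBPJ. In RCC, NOTCH2 led with a median of 15.8 FPKM (15.3 to 16.2), followed by JAG1 at 13.9, RBPJ at 12.4 and HES1 at 12.2 FPKM. NOTCH2 stood apart from JAG1, but JAG1 overlapped RBPJ and RBPJ overlapped HES1. NOTCH1 (7.90 FPKM) and HES4 (5.49) came next and overlapped each other. In SCC, HES1 was first with a median of 48.3 FPKM (45.6 to 58.0), and its lowest library exceeded the highest NOTCH2 library (17.2 FPKM). HES4 came next after JAG1 at 12.8 FPKM, overlapping JAG1 (14.8 FPKM) but above RBPJ (11.0) in every library. NOTCH1 followed at 8.32 FPKM and overlapped RBPJ. Below these the order was the same in both groups: NRARP, JAG2, HEY1 and NOTCH3, with SCC medians of 2.88, 0.92, 0.44 and 0.25 FPKM. NRARP and JAG2 each stood apart from the next gene in both groups, whereas HEY1 and NOTCH3 overlapped in RCC and not in SCC.

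Within the receptors the proportions were stable. NOTCH2 made up 59.5% to 66.6% of the summed FPKM of the 4 NOTCH genes in SCC and 65.1% to 66.2% in RCC. NOTCH1 made up 39.0%, 31.6% and 32.7% in SCC replicates 1 to 3 and 32.6% to 33.7% in RCC. SCC replicate 1 was again the library that differed, and the remaining 5 lay within about 2 percentage points of each other. NOTCH3 made up 0.76% to 1.23% over all libraries.

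Among the 10 HES and HEY genes the proportions differed between groups. HES1 made up 65.9%, 69.7% and 69.7% of their summed FPKM in SCC replicates 1 to 3 and 48.3%, 47.8% and 44.5% in RCC replicates 1 to 3. The groups were far apart on this share, which follows from the values of HES1 already given. HES4 made up 17.7% to 21.8% in SCC and 21.6% to 27.9% in RCC, so its share was not larger in SCC although its level was. The ratio of HES1 to NOTCH2 was 2.72 to 3.37 in SCC and 0.70 to 0.89 in RCC.

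**Figure D3:**
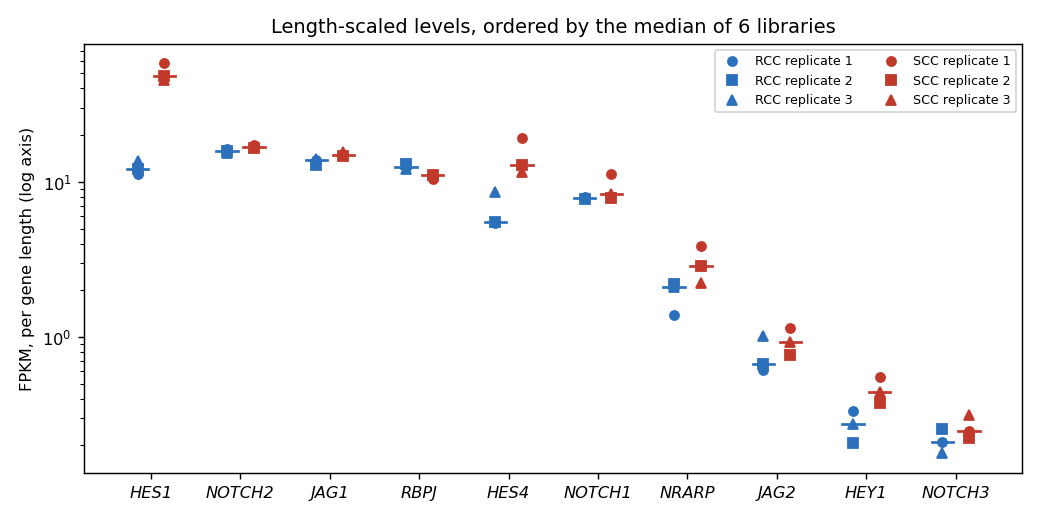
Deposited FPKM (log axis) of the 10 genes, ordered from left to right by the median of 6 libraries, with RCC in blue, SCC in red and a short line at each group's median. HES1 moves from the level of JAG1 and RBPJ in RCC (median 12.2 FPKM) to the top in SCC (48.3 FPKM), and the genes from NRARP to NOTCH3 lie at or below 3.84 FPKM in every library.

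The rest of the pathway was taken from 8 lists by role, 74 genes that are not members, of which 65 were tested. These lists were written from general knowledge of the pathway, but with earlier results of these data known. Their counts, shares and p-values are therefore given as a description and not as an independent test. By edgeR's quasi-likelihood test with Benjamini-Hochberg adjustment over all tested genes, 3 of the 65 were higher in SCC and 0 lower, and 62 were not called. At an unadjusted p under 0.05, 13 were higher (20.0%) and 1 was lower (1.5%), against 11.4% and 8.3% of all tested genes. As given for the members, 1.69% of all tested genes were called higher. The median log2 fold change was 0.105, against 0.003 for all tested genes, and 49 of the 65 (75.4%) had a positive value, against 50.5% of all tested genes. With the GC offset 46 of the 65 were positive and the median was 0.054, and without SCC replicate 1 it was 0.038.

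Called genes of these lists were TLE1 and TLE2, which encode Groucho-type corepressors recruited by HES proteins, and CDKN1A, which encodes the cyclin-dependent kinase inhibitor p21. TLE1 was at 48.7, 40.5 and 41.7 CPM in SCC and 32.9, 33.8 and 31.1 in RCC, and every SCC library was above every RCC library. The log2 difference came to 0.42 ± 0.09 (edgeR adjusted p 0.0447). TLE2 was at 6.64, 4.81 and 5.22 CPM in SCC and 3.35, 2.58 and 3.02 in RCC, again without overlap. Here the log2 difference came to 0.90 ± 0.19 (edgeR adjusted p 0.0386). GC contents were 57.6% for TLE1 and 63.7% for TLE2, and with the GC offset the log2 fold changes were 0.29 and 0.65. Without SCC replicate 1 they were 0.33 and 0.75. Both adjusted p-values were close to the threshold, and over the 18 alternatives they ranged from 0.0021 to 0.271 for TLE1 and from 0.000891 to 0.383 for TLE2. Each was called in 11 of the 18. Neither was called in any limma setting, without SCC replicate 3 or without RCC replicate 1, 2 or 3. The other TLE genes, named after their values were seen, were not called: TLE3 had a log2 fold change of 0.36 and AES, a short relative, of 0.23, with edgeR adjusted p of 0.225 and 0.180, and TLE4 was too low to be tested. With the GC offset AES was at 0.09. CDKN1A was called in all 18 alternatives, with a log2 fold change of 0.55 to 0.71 around 0.69 in the main fit (standard error 0.08, edgeR adjusted p 7.47e-04). DINOL overlaps CDKN1A on the opposite strand, and as the use of strand in counting was not stated, reads of the pair could mix.

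In the remaining groups no gene was called. Of the Delta-like and DLK ligands and NOTCH4, 3 of 6 genes were tested, and DLL4 had the largest fold change, 0.90 with a standard error of 0.55 (edgeR adjusted p 0.370), at 0.11 to 1.11 CPM. DLL1 was at most 0.45 CPM and DLL3 at most 0.20 CPM in any library. The noncanonical ligand gene DLK2, named after its values were seen, was at 5.83 to 9.51 CPM with a log2 fold change of 0.01 (edgeR adjusted p 0.975), or -0.17 with the GC offset. All 5 genes for receptor glycosylation were tested, led by the Fringe gene LFNG. Mean LFNG levels were 24.0 ± 2.98 CPM for SCC and 19.4 ± 2.02 for RCC (SD over n = 3), a log2 difference of 0.30 (standard error 0.12, edgeR adjusted p 0.201) that was 0.09 with the GC offset. The 9 genes for receptor cleavage, which include ADAM10, ADAM17 and the gamma-secretase subunits, ranged from -0.28 for APH1B to 0.16 for FURIN, which was at -0.04 with the GC offset. Mean APH1B levels were 5.55 ± 0.79 CPM for SCC and 6.73 ± 0.94 for RCC (SD over n = 3), with an edgeR adjusted p of 0.368.

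The 8 RBPJ coactivator genes lay between -0.04 and 0.21, the highest being the acetyltransferase gene CREBBP (standard error 0.11, edgeR adjusted p 0.295), which was at 0.10 with the GC offset. Of 13 tested genes for trafficking and turnover, 8 were positive with a median log2 fold change of 0.02. DTX4, a Deltex gene, had the largest, 0.71 with a standard error of 0.53 (edgeR adjusted p 0.464), at under 1 CPM. The other HES and HEY genes that could be tested, HES2, HES6, HES7 and HEYL, had log2 fold changes of 0.16 to 0.35. With the GC offset, HES6 and HES7 turned to -0.10 and -0.09, and HEYL and HES2 were at 0.09 and 0.22. Mean HES2 levels were 5.92 ± 0.51 CPM for SCC and 4.65 ± 0.74 for RCC (SD over n = 3), with an edgeR adjusted p of 0.269. HES5, a classical Notch target in other tissues, had 0 reads in 5 of 6 libraries, and HES3 had 0 in all 6. A count of 0 allows up to 3 counts, which is 0.108 to 0.170 CPM in these libraries, counting error alone considered. Apart from CDKN1A, the 8 other reported Notch targets ranged from 0.08 for CCND1 to 0.32 for IL7R and were not called. IL7R (edgeR adjusted p 0.0809) and MYC (0.105) were named after their values were seen. With the GC offset, IL7R (log2 fold change 0.41) and MYC (0.20) were called higher together with CDKN1A, TLE1 and TLE2.

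**Figure D4:**
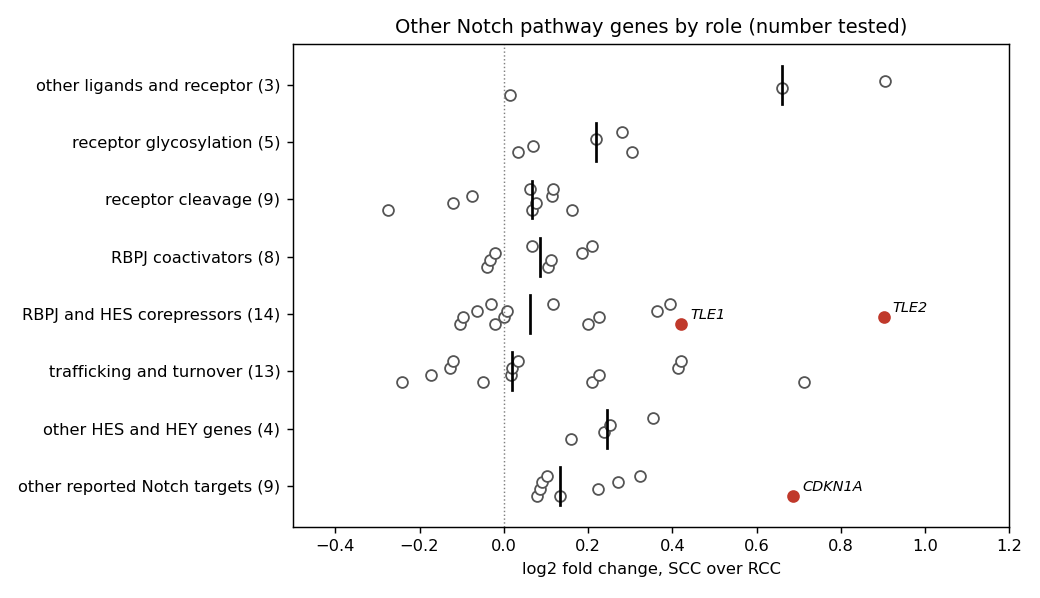
Log2 fold change of SCC over RCC (horizontal axis) of the 65 tested pathway genes that are not members, by role, with open circles for genes not called, red circles for called genes and a black line at each group's median. TLE2 (0.90), TLE1 (0.42) and CDKN1A (0.69) are the called genes, and every group's median lies between 0.02 and 0.66.

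The genes whose values followed HES1 most closely were sought among 10906 tested genes with a mean of at least 5 CPM. Likeness was the root mean square difference of log2 CPM over the 6 libraries after each gene was centred on its own mean. The 5 nearest were IRX5, EGR1, JUNB, CSRNP1 and CYP1B1, with differences of 0.12, 0.15, 0.16, 0.16 and 0.17 against a median of 1.03 over all candidates. The points share the split into 2 groups, so this likeness mostly reflects a similar gap between SCC and RCC. IRX5 (ENSG00000176842, chromosome 16, 54930862 to 54934485), an Iroquois homeobox gene, was at 25.7, 17.3 and 19.7 CPM in SCC and at 4.65, 5.35 and 6.26 in RCC. Like HES1 it was highest in SCC replicate 1 and, within RCC, in replicate 3. EGR1 (ENSG00000120738), an immediate early zinc finger factor, was at 295.1, 208.8 and 201.0 CPM in SCC and at 67.5, 61.0 and 63.4 in RCC. The log2 fold changes of the 5 ranged from 1.80 for JUNB to 2.29 for CSRNP1. JUNB, CSRNP1 and CYP1B1 overlap genes on the opposite strand, and CYP1B1 also overlaps RMDN2-AS1 on the same strand. Their counts may therefore be less certain than those of IRX5 and EGR1, which overlap none. Only whole gene spans were compared for these genes, and overlap of exons was not checked.

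**Figure D5:**
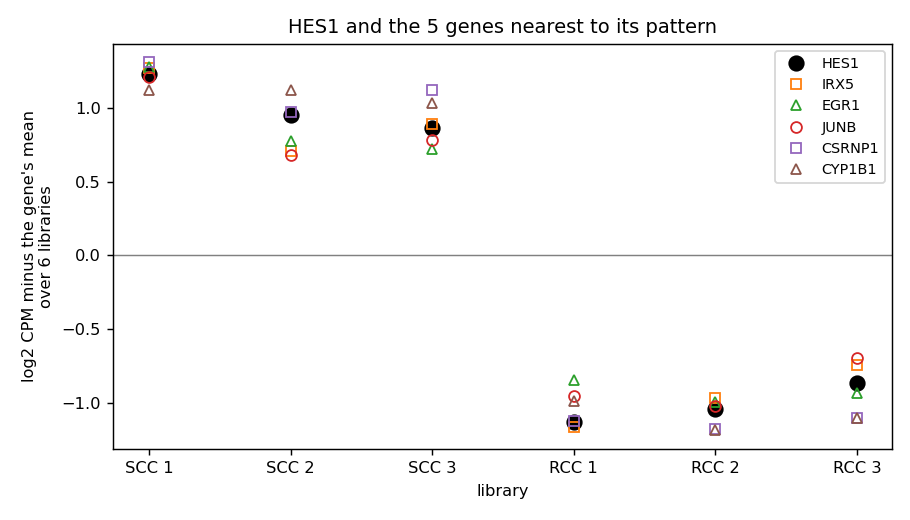
Log2 CPM minus each gene's mean over 6 libraries (vertical axis) in each library, for HES1 (filled black circles) and the 5 genes nearest to it (open symbols). All 6 genes lie above 0 in the 3 SCC libraries and below 0 in the 3 RCC libraries, with HES1 at 1.23, 0.95 and 0.87 in SCC replicates 1 to 3.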

How the data were processed

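RNA-seq was measured in 6 libraries, 3 per group. The deposited tables gave whole-number counts per gene and, separately, FPKM values per gene, each beside a column of gene length; how the authors computed FPKM is not given in the sources used here. HISAT2 2.0.5 and featureCounts 1.5.0-p3 are named in the submitters' processing notes; the build, the annotation and the use of strand are not given in the sources used here. Positions of 58724 of 58735 rows, the members' among them, equalled GENCODE release 29 on GRCh38. The members and all lists were chosen with earlier results of these data known.

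Counts were filtered with filterByExpr (minimum count 10), scaled by TMM and fitted on group with edgeR 4.0.16 (glmQLFit, quasi-likelihood F test, two-sided) in R 4.3.3, with Benjamini-Hochberg adjustment over 15881 genes and calls at an adjusted p under 0.05. The test was checked on simulated data. Positive log2 fold changes mean higher in SCC; each standard error is the log2 fold change divided by the root of F. Alternatives used DESeq2 1.42.0, limma 3.58.1 on log2(FPKM + 1) and log2(FPKM + 0.1), other scalings and filters, thinning, a replicate block, each library left out, and a GC offset (lowess per library, span 0.3) from each gene's longest GENCODE transcript. Named genes were the 10 members, called list genes, the largest fold change per list, and the 5 genes nearest to HES1.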

Additional observations from a re-analysis of the deposited data

How the results depend on the processing

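HES1 was called higher under all 18 alternatives, with log2 fold changes of 1.93 to 2.11. HES4 was called in 13 of 18. The number of members called higher was 2, and 1 with limma on log2(FPKM + 1), with or without a filter, and on log2(FPKM + 0.1), where HES4 had log2 fold changes of 1.05, 1.05 and 1.15. Leaving out each library gave 1 to 2 members higher and 0 to 1 lower, the one being RBPJ without SCC replicate 1. Testing all genes with any count gave 3, adding NRARP (0.69). The sign for NOTCH1 turned with the GC offset (-0.015) and with the block and GC offset together (-0.016). The number of other pathway genes called higher was 3, and 8 when all genes with any count were tested, 5 with the GC offset, 5 with the replicate block and GC offset, and 1 in each of the 3 limma settings. Leaving out each library gave 1 to 5, the 1 without SCC replicate 3 or any RCC replicate and the 5 without SCC replicate 1. The share of all tested genes called higher moved as well, from 1.69% in the main fit. It was 2.65% with any count, 3.29% with the GC offset, 3.91% with block and GC offset, and 0.128% to 1.04% with limma. It was 3.93% without SCC replicate 1, 1.09% without SCC replicate 3 and 0.602% to 0.63% without an RCC replicate. The cause was not tested. Nothing in the sources says that replicate numbers pair, so they were not taken as pairs. Deviations from the group mean of libraries sharing a number had correlations of -0.009, 0.025 and -0.079. With 3 libraries per group these cannot settle whether the numbers pair. With the replicate block alone, 2 members and 3 other pathway genes were called higher, as without it. Over all genes, the block gave 350 higher calls against 268 and 106 lower calls against 60. Over all genes, higher calls ranged from 48 with limma without a filter to 995 with all genes that had any count, against 268, and lower calls from 1 to 430, against 60. The number of tested genes differed between these settings. By share of tested genes, higher calls ranged from 0.128% with limma without a filter to 3.93% without SCC replicate 1, against 1.69%. In the order of levels, 3 of the neighbouring pairs did not overlap over all libraries, and 3 to 4 with each library left out. HEY1, NOTCH3 and JAG2 were below the FPKM filter, and their standard errors of 0.22 to 0.32 on the log2 scale limit what could be detected.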
